A study of Mus musculus with 19 samples.

Results

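The tumours with the most and the fewest T cell transcripts were compared in a set of 19 Met1 mammary tumours. The sides were chosen by the summed level of Cd3d, Cd3e and Cd3g, the genes of the CD3 chains, as counts over the library's total times 1000000 (CPM). The 6 tumours with the highest sum, called CD3-high, were set against the 6 with the lowest, called CD3-low, so that 12 of 19 tumours enter the comparison and 7 lie in between. These sides were made from the measured CD3 level and are not groups of the study. A p-value below is therefore the association of another gene with that level in these tumours, and the 3 CD3 genes have no test.

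Met1 is a mouse mammary carcinoma line that came from a polyoma middle T transgenic tumour. Mice with Met1 tumours received extracellular vesicles, the small membrane particles that cells release, taken from neutrophils that had been exposed either to the vehicle DMSO (9 tumours) or to 27-hydroxycholesterol, a cholesterol metabolite (27HC, 10 tumours). Each tumour gave 1 poly(A) RNA-seq library, named here by treatment and title number (27HC 1_3). All 19 tumours thus come from hosts that received neutrophil vesicles, and no tumour without vesicles was analysed here. The labels name no strain, sex, age or vesicle dose and do not state that each library is a separate mouse, so p-values measure the spread between these libraries. The CD3-high side holds 3 DMSO and 3 27HC tumours, and the CD3-low side holds 2 DMSO and 4 27HC tumours.

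The CD3 chains carry the signal of the T cell receptor. The receptor's alpha and beta chains bind a peptide held by a major histocompatibility complex (MHC) protein, and the CD3 delta, epsilon and gamma chains with the zeta chain pass the signal on to kinases such as Lck. CD8 T cells read MHC class I and kill through granules of perforin and granzymes, CD4 T cells read MHC class II, and both can release interferon gamma, which turns on chemokines and antigen presentation in neighbouring cells. T cells kept under long stimulation carry inhibitory receptors such as PD-1. In bulk RNA a lower level can mean fewer cells of a type or less RNA per cell, and these cannot be told apart here.

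The 3 CD3 genes lie side by side on chromosome 9 (GRCm38, GENCODE M21). Cd3g spans 44969572 to 44980431 on the minus strand, Cd3d spans 44981786 to 44987339 on the plus strand, and Cd3e spans 44998740 to 45009627 on the minus strand. The sum was 38.8 CPM in 27HC 1_3, 36.6 in 27HC 2_3, 36.5 in DMSO 2_4, 31.5 in DMSO 1_5, 30.1 in DMSO 2_3 and 23.4 in 27HC 1_4, the 6 CD3-high tumours. The CD3-low tumours had sums of 10.6 CPM in 27HC 2_5, 10.3 in DMSO 2_2, 9.84 in DMSO 2_1, 9.78 in 27HC 2_1, 7.95 in 27HC 1_1 and 7.11 in 27HC 1_2. The ratio of the side medians was 3.46. The order is a gradient with no wide gap at either limit: just outside the high side lay DMSO 1_3 at 20.7 CPM, and just outside the low side lay 27HC 2_2 at 12.03 CPM. The mean sum was 20.3 ± 10.02 CPM (SD, n = 9) in DMSO tumours and 18.2 ± 11.5 CPM (SD, n = 10) in 27HC tumours, a difference far smaller than either SD.

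**Figure D1:**
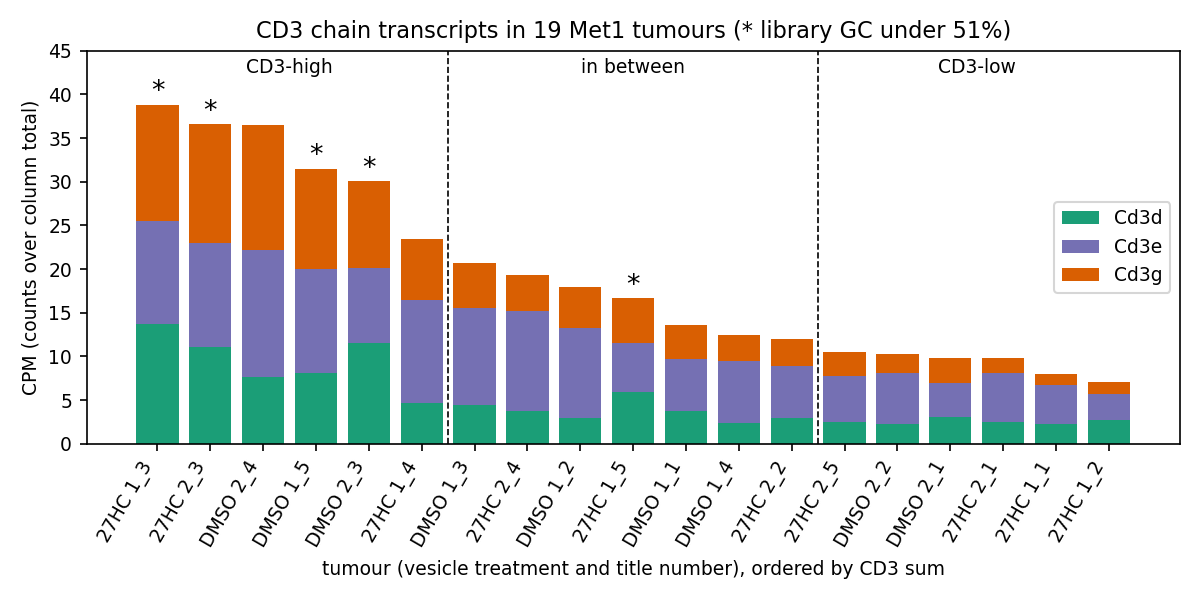
Stacked levels of Cd3d, Cd3e and Cd3g (CPM of the column total) in each of 19 tumours, ordered by their sum, with dashed lines at the limits of the 6 CD3-high and 6 CD3-low tumours and an asterisk on each library with a GC content under 51%. The sums fall from 38.8 to 7.11 CPM without a step at the limits, and 4 of the 6 CD3-high libraries carry the asterisk.

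The chains did not keep a fixed ratio. Cd3d was 13.7 CPM in 27HC 1_3, 11.6 in DMSO 2_3 and 11.03 in 27HC 2_3, where it was close to Cd3e (11.9, 8.52 and 12.01 CPM), but 7.66 against 14.5 CPM in DMSO 2_4 and 4.64 against 11.8 CPM in 27HC 1_4. Cd3g ran from 6.999 to 14.3 CPM in CD3-high and from 1.17 to 2.85 CPM in CD3-low tumours. After scaling by the trimmed mean of M values (TMM), which the levels below carry unless they are named as column-total CPM, DMSO 1_3 (24.6 CPM) would take the place of 27HC 1_4 (22.7 CPM) on the high side.

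The libraries of the sides differed in more than the CD3 level. Their GC content, the transcript GC weighted by counts, was 50.6 ± 1.07% in CD3-high and 52.1 ± 0.54% in CD3-low tumours (SD, n = 6 each; two-sided exact permutation p = 0.024, of which the smallest possible is 0.0022). Of 5 libraries under 51%, 4 were CD3-high (27HC 1_3, 27HC 2_3, DMSO 1_5 and DMSO 2_3), the fifth lay in between (27HC 1_5) and none was CD3-low, so low GC and high CD3 cannot be told apart within that cluster. CD3-high libraries also had more detected genes (20337 against 19297 with at least 1 count, exact permutation p = 0.0087), a smaller share of ribosomal protein transcripts (1.90% against 2.69%, exact permutation p = 0.0043) and larger TMM factors (1.21 against 0.915, exact permutation p = 0.0022), while totals of expected counts overlapped, 32667514 to 41179056 in CD3-high and 31699493 to 37144106 in CD3-low libraries (exact permutation p = 0.52). Over 10 such library measures, the Benjamini-Hochberg adjusted p of these tests were 0.034, 0.022, 0.014, 0.014 and 0.58.

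**Figure D2:**
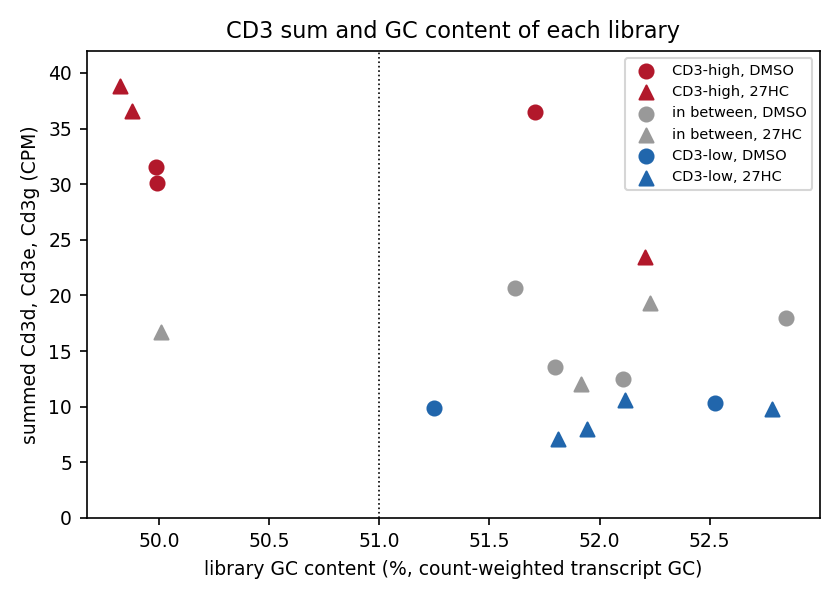
Summed CD3 level (CPM, y axis) against library GC content (%, x axis) for 19 tumours, with colour for the side, circles for DMSO, triangles for 27HC and a dotted line at 51%. Of the CD3-high tumours, 4 lie near 50% GC, and DMSO 2_4 and 27HC 1_4 lie among the CD3-low tumours at 51.7% and 52.2%.

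Each gene was therefore read in 3 fits. The first set 6 against 6 tumours with treatment as covariate in edgeR's quasi-likelihood test, and differences are its log2 fold changes, CD3-high over CD3-low, ± SE, with p adjusted by Benjamini-Hochberg over all genes tested and calls at 0.05. The GC-adjusted fit added library GC content as a covariate. The ordinary-GC fit, chosen after the data were seen, left out the low-GC libraries and set DMSO 2_4 and 27HC 1_4 against the 6 CD3-low tumours. The latter fits reuse the same tumours and are no independent support. Scaling by library totals without TMM gave 80% of calls higher, against 51.5% with it, and moved the median of all genes from 0.085 to 0.45. In the first fit 3974 of 15849 genes were higher (25.1%) and 3749 lower (23.7%), in the GC-adjusted fit 618 higher (3.9%) and 542 lower (3.42%), and in the ordinary-GC fit 150 of 16259 higher (0.923%) and 15 lower (0.0923%). Across genes the log2 fold change fell with transcript GC in the first fit (Spearman rho −0.62 over 15620 genes, which are not independent replicates), and the rho was −0.21 and −0.20 in the other fits. Of the 3965 genes called higher and tested again, 521 had the opposite sign in the ordinary-GC fit, and of the 3749 called lower, 53 did.

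The other chains of the T cell receptor followed the CD3 genes. All 6 measured partners (Cd247, Trac, Trbc1, Trbc2, Trdc and Trat1) were higher in CD3-high tumours, with a median difference of 1.29 against 0.085 over all genes. Trac, the alpha chain constant gene (chromosome 14, 54220521 to 54224206, plus strand, ENSMUSG00000076928), had a lowest, median and highest level of 9.52, 11.3 and 17.4 CPM in CD3-high and 3.47, 4.53 and 7.74 CPM in CD3-low tumours. Its difference was 1.28 ± 0.21 (adjusted p = 0.0017), and the sides did not overlap, as was the case for 5.21% of all genes in that direction. Cd247, the zeta chain (chromosome 1, 165788681 to 165877277, plus strand, ENSMUSG00000005763), had 5.54, 6.50 and 9.23 CPM against 2.62, 3.33 and 3.47 CPM, again without overlap, and a difference of 1.08 ± 0.16 (adjusted p = 0.0014). Trbc1 and Trbc2, the near-identical beta chain constant genes between which reads can be shared, differed by 1.98 and 1.30 (adjusted p = 0.0014 and 0.001). The GC-adjusted fit called 4 of 6 and the ordinary-GC fit 2 of 6, Trac at 1.31 (adjusted p = 0.024) and Cd247 at 1.22 (adjusted p = 0.03). The gamma chain gene Tcrg-C2 was 0.578 to 2.07 CPM in CD3-high and 0.102 to 0.196 CPM in CD3-low tumours, with 3.02 ± 0.42 (adjusted p = 0.0011). At such levels a gene could pass the filter on low counts through the CD3-high side alone, so this call is no support for the other chains.

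T cell surface and signalling genes were higher with a single exception, and the genes of both co-receptors were among them. Of 24 genes, 23 were called higher and none lower, with a median difference of 0.98. Cd8a, a chain of the CD8 co-receptor (chromosome 6, 71373427 to 71379173, plus strand, ENSMUSG00000053977), had a lowest, median and highest level of 11.3, 20.8 and 34.8 CPM in CD3-high and 4.94, 6.51 and 9.36 CPM in CD3-low tumours. The sides did not overlap, the difference was 1.65 ± 0.25 (adjusted p = 0.0016), and its partner chain Cd8b1 differed by 1.16 ± 0.25 (adjusted p = 0.004). Cd4, the co-receptor of helper T cells and in mice also present on some myeloid cells, had 15.03, 21.6 and 24.1 CPM against 6.63, 13.3 and 16.5 CPM, and here the sides overlapped. Its difference of 0.76 ± 0.20 (adjusted p = 0.0087) is less than that of Cd8a, but a difference between the 2 genes was not tested. Lck, the first kinase of the pathway, overlapped between the sides and differed by 0.52 ± 0.18 (adjusted p = 0.034, called in 6 of 12 fits that left out a tumour).

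Fewer of these genes passed in the GC-adjusted and ordinary-GC fits. In the GC-adjusted fit 14 of 24 surface and signalling genes were called higher (median 0.94), and in the ordinary-GC fit 6 of 24 (median 0.94). Of all genes, 3.9% and 0.923% were called higher in these fits. A loess correction of each library on transcript GC, applied to the 6 against 6 comparison, called 23 of 24 higher (median 1.03). Of all 15849 genes it called 2879 higher. Both ordinary-GC CD3-high tumours lay above all 6 CD3-low tumours for 19 of the 24, against 9.5% of all genes. Cd8a was 34.8 CPM in DMSO 2_4 and 18.8 CPM in 27HC 1_4, and its difference there was 1.86 ± 0.25 (adjusted p = 0.019). Cd27, a costimulatory receptor, and Cd96, a receptor of T and NK cells, differed by 1.68 and 1.72 over 12 tumours and by 1.51 and 1.55 in the ordinary-GC fit (adjusted p = 0.038 and 0.03). Il2rb, the interleukin 2 receptor beta chain, had a smaller difference over 12 tumours, 0.72 (adjusted p = 0.017), than in the ordinary-GC fit, 1.18 (adjusted p = 0.027).

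Ptprc, which encodes the pan-leukocyte antigen CD45 and was named after its values were seen, stood highest in the low-GC libraries. It was 119 to 163 CPM in the 4 low-GC CD3-high tumours, 45.1 CPM in DMSO 2_4 and 39.9 CPM in 27HC 1_4, and 14.1 to 38.5 CPM in CD3-low tumours. The level of Ptprc per unit of the CD3 sum was 4.71 to 5.42 in the 4 low-GC CD3-high tumours, 1.37 and 1.76 in the ordinary-GC ones and 1.60 to 3.85 in the CD3-low tumours. Its difference of 2.23 ± 0.38 (adjusted p = 0.002) became 0.83 (adjusted p = 0.089) in the ordinary-GC fit. The part of GC content in this was not tested.

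T cell transcription factors were mixed. Of 15, 8 were higher and 2 lower, and 2 and 0 in the GC-adjusted fit. Of all genes, 25.1% were higher and 23.7% lower, and 3.9% and 3.42% in the GC-adjusted fit. Ikzf3, the lymphoid factor Aiolos, was 4.79 to 14.3 CPM in CD3-high and 0.886 to 3.75 CPM in CD3-low tumours (2.23 ± 0.35, adjusted p = 0.0016). Eomes and Tox, factors of effector and of chronically stimulated T cells, differed by 1.62 and 1.35 (adjusted p = 0.0033 and 0.0032) and did not pass in the GC-adjusted fit (adjusted p = 0.16 and 0.062). Foxp3, the factor of regulatory T cells, overlapped between the sides, 6.50, 8.83 and 13.2 CPM against 3.24, 5.75 and 8.73 CPM as lowest, median and highest. Its difference of 0.70 ± 0.26 was called (adjusted p = 0.042) but was lost in 6 of 12 fits without a tumour and in the GC-adjusted fit (adjusted p = 0.37).

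Among inhibitory receptors and their ligands, Pdcd1 was higher in the first fit and had a larger difference once the low-GC libraries were set aside. The list of 18 genes had 13 higher and none lower, with 8 higher in the GC-adjusted and 1, Pdcd1, in the ordinary-GC fit. Pdcd1, which encodes PD-1 (chromosome 1, 94038305 to 94052553, minus strand, ENSMUSG00000026285), was 20.1 CPM in DMSO 2_4 and 16.8 CPM in 27HC 1_4, 4.58 to 10.9 CPM in the low-GC CD3-high tumours and 3.91 to 10.01 CPM in CD3-low tumours. The sides thus overlapped through the low-GC libraries, of which DMSO 2_3 was lowest. The difference was 0.89 ± 0.32 (adjusted p = 0.035, called in 7 of 12 fits without a tumour) and 1.57 ± 0.27 in the ordinary-GC fit (adjusted p = 0.024). Its ligand genes Cd274 and Pdcd1lg2 differed by 1.10 and 1.25 (adjusted p = 0.0052 and 0.0015), with 0.40 and 1.17 in the ordinary-GC fit (adjusted p = 0.31 and 0.065). Ctla4 and Btla, 2 further inhibitory receptors, differed by 1.82 and 2.46 (adjusted p = 0.0044 and 0.0017). In the GC-adjusted fit these were 0.93 and 1.29 (adjusted p = 0.13 and 0.014), and in the ordinary-GC fit 1.00 and 1.44 (adjusted p = 0.31 and 0.11). Lag3 did not pass: it was 8.29 to 24.2 CPM in CD3-high and 9.54 to 19 CPM in CD3-low tumours, with -0.085 ± 0.27 (adjusted p = 0.81), and its sign turned to 0.59 in the ordinary-GC fit (adjusted p = 0.22).

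Granule and effector genes were higher too, and Gzmb and Nkg7 peaked in DMSO 2_4. Of 17 genes tested (Gzmk was too low), 13 were higher and none lower, with a median of 1.36. The GC-adjusted fit called 6, and the ordinary-GC fit 1, Nkg7. Gzmb, which encodes granzyme B, had a lowest, median and highest level of 9.57, 18.4 and 39.7 CPM in CD3-high and 3.06, 6.75 and 9.65 CPM in CD3-low tumours, with the highest in DMSO 2_4 and a small overlap. It differed by 1.57 ± 0.38 (adjusted p = 0.0064), and by 1.60 in the GC-adjusted fit (adjusted p = 0.068). Nkg7, a protein of cytotoxic granules, was 21.8 CPM in DMSO 2_4, 11.1 in 27HC 1_4 and 5.62 to 9.98 CPM in the low-GC CD3-high tumours, against 4.17 to 7.94 CPM in CD3-low tumours (0.89 ± 0.30, adjusted p = 0.027). Prf1, which encodes perforin, did not pass (8.49 to 39.6 against 5.13 to 17.3 CPM, 0.66 ± 0.40, adjusted p = 0.18), nor did the chemokine gene Ccl5 (0.62 ± 0.31, adjusted p = 0.11). Ccl5 had larger differences of 1.18 and 1.17 in the GC-adjusted and ordinary-GC fits, which did not call it either (adjusted p = 0.056 and 0.06). Gzma was low on both sides, 0.582 to 1.21 against 0.0385 to 0.441 CPM (1.61 ± 0.40, adjusted p = 0.0075). Like Tcrg-C2, it could pass the filter on low counts through the CD3-high side alone.

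Interferon gamma itself was higher. Ifng (chromosome 10, 118441046 to 118445892, plus strand, ENSMUSG00000055170) was 4.26 CPM in DMSO 1_5, 4.24 in DMSO 2_4, 3.66 in 27HC 2_3, 3.23 in 27HC 1_3, 2.07 in DMSO 2_3 and 1.53 in 27HC 1_4. In CD3-low tumours it was 0.407 to 1.12 CPM, so the sides did not overlap. The difference was 2.00 ± 0.33 (adjusted p = 0.0018), 1.63 in the GC-adjusted fit (adjusted p = 0.032) and 1.69 in the ordinary-GC fit, which did not call it (adjusted p = 0.083). Xcl1, a chemokine that draws cross-presenting dendritic cells, and Ctsw, a cathepsin of killer lymphocytes, differed by 1.76 and 0.96 (adjusted p = 0.002 and 0.0019).

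NK cell receptor genes had the largest list median among the immune lists, but at low levels and with a smaller median in the GC-adjusted and ordinary-GC fits. Of 12 listed genes 10 passed the filter on low counts, which a gene could pass through 1 side alone, and the median covers only these. Of these 10, 9 were higher, with a median of 2.53. The median was 1.51 in the GC-adjusted fit (6 called) and 1.51 in the ordinary-GC fit (1 called, Cd226). With the loess correction on transcript GC it was 1.67 (9 called). Ncr1, the NK receptor NKp46, had a lowest, median and highest level of 1.16, 2.54 and 4.60 CPM in CD3-high and 0.0679, 0.406 and 0.792 CPM in CD3-low tumours, without overlap (2.79 ± 0.43, adjusted p = 0.0016). It was 2.40 CPM in DMSO 2_4 and 1.16 CPM in 27HC 1_4, and in the ordinary-GC fit 1.92 (adjusted p = 0.09). Klrd1 and Klrk1, lectin receptors shared by NK cells and CD8 T cells, differed by 2.95 and 2.19 (adjusted p = 0.001 and 0.0013).

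**Figure D3:**
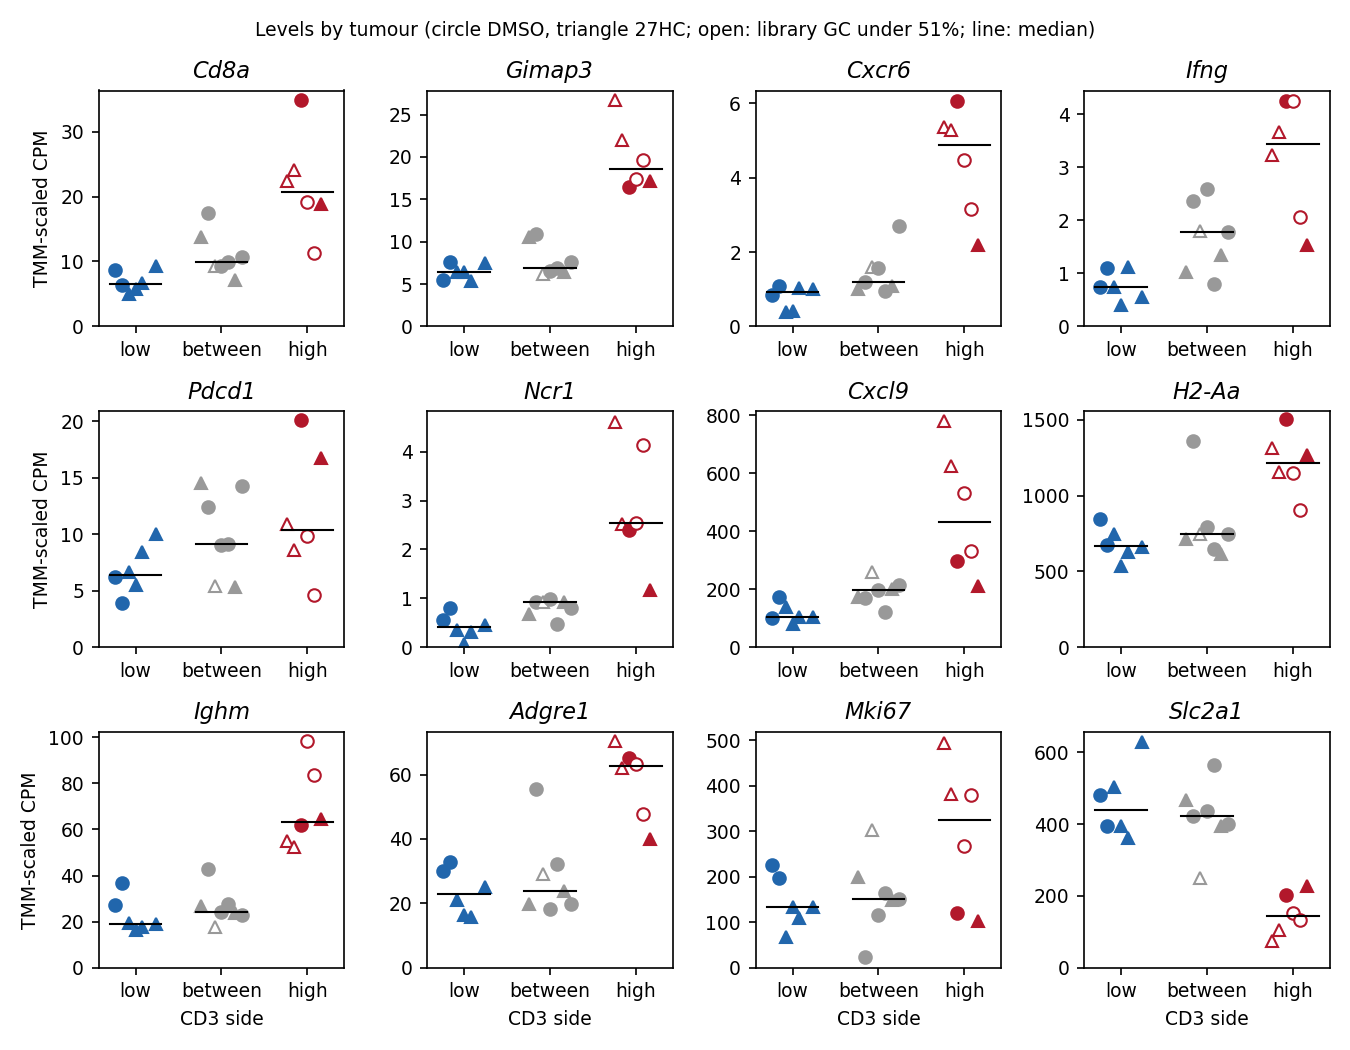
TMM-scaled CPM (y axes, from 0) of 12 genes in CD3-low (6), in-between (7) and CD3-high (6) tumours, with circles for DMSO, triangles for 27HC, open symbols for libraries under 51% GC and a line at each median. Gimap3 and Ighm separate the sides with open and filled symbols alike, Pdcd1 is highest in the filled symbols of DMSO 2_4 and 27HC 1_4, and Mki67 is high only in open symbols among the CD3-high tumours.

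Genes that interferon gamma induces were higher over 12 tumours, and fewer of them passed in the GC-adjusted and ordinary-GC fits, as was the case for all genes. Of 24, 21 were higher and 1 lower, with a median of 1.42. The GC-adjusted fit called 5 higher (median 0.60) and the ordinary-GC fit 3 (median 0.62). Of all genes, these fits called 3.9% and 0.923% higher, against 25.1% over 12 tumours. The loess correction on transcript GC called 22 higher (median 1.13), against 2879 of all 15849 genes. Interferons act on promoters through the interferon-stimulated response element (ISRE), searched here as GAAA, any 2 bases and GAAA again, and the gamma-activated site (GAS), searched as TTCNNNGAA, on both strands. Of 14 list members with a RefSeq promoter (GRCm38.p6, 250 bases before to 50 after the start), 11 held an ISRE match (78.6%, against 3.49% of 27025 promoters) and 7 a GAS match (50%, against 8.47%). The promoter of Cxcl9 held neither match, and that of Irf1 held a GAS but no ISRE match. The promoters of a guanylate-binding protein and of a chemokine are shown as list members with an ISRE match, in capitals, and no GAS match. They are those of Gbp2b (chr3:142594597-142594896, plus strand) and Cxcl10 (chr5:92348840-92349139, minus strand).
Gbp2b: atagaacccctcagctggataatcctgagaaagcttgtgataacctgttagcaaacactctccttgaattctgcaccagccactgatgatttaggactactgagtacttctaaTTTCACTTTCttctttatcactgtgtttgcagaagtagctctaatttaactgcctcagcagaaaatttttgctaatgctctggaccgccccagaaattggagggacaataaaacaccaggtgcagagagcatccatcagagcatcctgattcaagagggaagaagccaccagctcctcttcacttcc
Cxcl10: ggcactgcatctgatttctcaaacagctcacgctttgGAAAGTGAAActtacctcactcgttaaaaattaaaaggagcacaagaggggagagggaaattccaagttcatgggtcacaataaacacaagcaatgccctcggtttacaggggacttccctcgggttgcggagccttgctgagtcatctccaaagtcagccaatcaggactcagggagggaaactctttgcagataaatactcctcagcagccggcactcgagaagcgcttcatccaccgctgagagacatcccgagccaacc
A match describes these letters only and does not show binding.

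Gbp2b, whose product restricts intracellular pathogens, was 117 to 253 CPM in the low-GC CD3-high tumours, 77.2 CPM in DMSO 2_4 and 58.5 CPM in 27HC 1_4, and 17.1 to 64.8 CPM in CD3-low tumours. The difference of 2.46 ± 0.41 (adjusted p = 0.0019) was 1.14 in the ordinary-GC fit (adjusted p = 0.04). Cxcl10, a ligand of CXCR3, a chemokine receptor of T cells, differed by 0.86 ± 0.18 (adjusted p = 0.0038) and did not pass in the ordinary-GC fit (0.51, adjusted p = 0.14). Cxcl9, another CXCR3 ligand, had a lowest, median and highest level of 209.8, 431 and 779 CPM in CD3-high and 80.8, 104 and 173 CPM in CD3-low tumours, without overlap. It differed by 2.04 ± 0.31 (adjusted p = 0.0016) and by 1.08 in the ordinary-GC fit (adjusted p = 0.037). Nlrc5 and Ciita, the activators of MHC class I and class II genes, differed by 1.32 and 1.01 (adjusted p = 0.002 and 0.0031), and Irf1, an interferon-induced factor, did not pass (0.27 ± 0.15, adjusted p = 0.16).

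Genes induced by type I interferon gave fewer calls in the GC-adjusted and ordinary-GC fits, as did all genes. Of 20, 13 were higher over 12 tumours (median 0.99), 2 in the GC-adjusted fit (median 0.28) and 1, Mx1, in the ordinary-GC fit. The shares of all genes called higher in these 3 fits were 25.1%, 3.9% and 0.923%. The loess correction on transcript GC called 13 higher (median 0.69). Mx1, an antiviral GTPase, was 8.36 to 16.2 CPM in CD3-high and 1.79 to 5.63 CPM in CD3-low tumours (1.93 ± 0.27, adjusted p = 0.0011, ordinary-GC 1.57, adjusted p = 0.045). Oas2, an enzyme that senses double-stranded RNA, differed by 1.81 ± 0.29 (adjusted p = 0.0017). Members of the Gbp and Oas families resemble each other, so counts may be split between them.

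MHC class II genes gave as many calls with GC content as covariate as without. 5 of 9 were higher in the first and in the GC-adjusted fit, 3 in the ordinary-GC fit, and the medians were 0.51, 0.77 and 0.72. For 8 of 9, both ordinary-GC CD3-high tumours lay above all CD3-low tumours, against 9.5% of all genes. H2-Aa, a class II alpha chain, had 906, 1214 and 1508 CPM as lowest, median and highest in CD3-high and 532, 667 and 846 CPM in CD3-low tumours, without overlap. Its difference was 0.85 ± 0.16 (adjusted p = 0.0025) and 1.01 ± 0.17 in the ordinary-GC fit (adjusted p = 0.024). H2-Eb1, a beta chain, differed by 0.61 (adjusted p = 0.013), H2-Ob, which tunes peptide loading, by 1.90 (adjusted p = 0.001), and Ctss, the protease cathepsin S that frees the groove for peptide, by 1.56 (adjusted p = 0.001). Class II promoters carry a Y box, searched as CCAAT on both strands, which 5 of 7 promoters of the list held (71.4%, against 37.9% of all promoters). The match is not particular to this list. It was in 10 of 15 promoters of the MHC class I list (66.7%) and 8 of 14 of the interferon gamma list (57.1%). Those of H2-Aa (chr17:34287774-34288073, minus strand) and H2-Eb1 (chr17:34305617-34305916, plus strand) are given with Y boxes in capitals, because the genes moved together with the CD3 level.
H2-Aa: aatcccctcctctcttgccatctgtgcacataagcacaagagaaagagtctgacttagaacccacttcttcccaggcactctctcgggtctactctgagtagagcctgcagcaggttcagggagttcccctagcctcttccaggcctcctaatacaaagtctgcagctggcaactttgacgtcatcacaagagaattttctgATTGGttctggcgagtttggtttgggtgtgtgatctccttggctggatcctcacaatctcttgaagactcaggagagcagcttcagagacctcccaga
H2-Eb1: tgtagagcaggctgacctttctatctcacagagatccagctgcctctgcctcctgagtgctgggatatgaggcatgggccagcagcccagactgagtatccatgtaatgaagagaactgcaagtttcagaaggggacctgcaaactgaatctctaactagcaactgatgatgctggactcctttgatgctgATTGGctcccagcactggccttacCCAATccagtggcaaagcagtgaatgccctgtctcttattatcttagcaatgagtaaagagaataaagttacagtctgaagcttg
H2-Aa held 1 match and H2-Eb1 held 2.

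MHC class I genes gave few calls. Of 16, 3 were higher and 2 lower, shares below those of all genes, and the median was -0.04, while scaling by library totals alone gave 7 higher and none lower (median 0.32), where 46.8% of all genes were higher and their median was 0.45. B2m, the class I light chain, was 2287 to 3107 CPM in CD3-high and 1546 to 2482 CPM in CD3-low tumours and did not pass (0.33 ± 0.17, adjusted p = 0.11), nor did the heavy chain H2-K1 (-0.21 ± 0.16, adjusted p = 0.27). The nonclassical gene H2-T23, whose product is the ligand of an NKG2 receptor, was higher (24.2 to 34.2 against 9.79 to 18.4 CPM, 1.15 ± 0.16, adjusted p = 0.0011).

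B cell and plasma cell genes went with the CD3 level as well. 12 of 15 B cell genes and 8 of 9 plasma cell genes were higher, with medians of 1.56 and 1.97. In the GC-adjusted fit 7 and 4 were called, and in the ordinary-GC fit 2 of each list. Ighm, the heavy chain constant gene of IgM, had the smallest p of all genes tested, with a lowest, median and highest level of 52.5, 63.2 and 98.2 CPM in CD3-high and 16.3, 19.2 and 36.9 CPM in CD3-low tumours. It did not overlap, and it differed by 1.56 ± 0.14 (adjusted p = 0.00058) and by 1.49 ± 0.19 in the ordinary-GC fit (adjusted p = 0.019). Cd79a and Cd79b, the signalling chains of the B cell receptor, differed by 0.92 and 1.64 (adjusted p = 0.021 and 0.002), and Ms4a1, which encodes CD20, by 2.08 (adjusted p = 0.0054). Igha, Igkc and Jchain, genes of secreted antibody, differed by 1.51, 2.44 and 2.95 (adjusted p = 0.0017, 0.0024 and 0.0016).

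Markers of lymph node stroma, which a mammary tumour can carry with it, were uneven. Of 11 listed genes 7 passed the filter on low counts, through whichever side was high, and 1, Cxcl13, was called higher. Ccl21a, a chemokine of lymph node stroma, was 38.2 CPM in 27HC 1_3, 32.1 in 27HC 2_3, 11.8 in DMSO 1_5, 9.23 in 27HC 1_4, 0.267 in DMSO 2_3 and 0 in DMSO 2_4, the tumour with the third CD3 sum. In CD3-low tumours it was 0 to 1.58 CPM apart from 10.3 CPM in 27HC 1_2, and it did not pass (2.95 ± 1.27, adjusted p = 0.068). Glycam1, a ligand of high endothelial venules, was at 0.116 to 0.873 CPM in all 19 tumours (0.59 ± 0.44, adjusted p = 0.28). Cxcl13, which draws B cells, was 18.3 to 39.2 CPM in the low-GC CD3-high tumours but 4.33 CPM in DMSO 2_4 and 3.25 CPM in 27HC 1_4, against 0.617 to 4.21 CPM in CD3-low tumours (2.87 ± 0.60, adjusted p = 0.0039, ordinary-GC 0.51, adjusted p = 0.59). The summed level of the list was 10.1 to 93.8 CPM in CD3-high and 9.30 to 26.9 CPM in CD3-low tumours. The part of lymph node tissue in the lymphocyte results was not tested.

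Dendritic cells and macrophages, which present antigen to T cells, had several genes higher. 9 of 14 dendritic cell genes were higher and 1 lower, where 25.1% of all genes were higher and 23.7% lower. The GC-adjusted fit called 4 higher and the ordinary-GC fit 3. The summed level of the list was not higher, with 376 to 492 CPM in CD3-high and 480 to 579 CPM in CD3-low tumours. Xcr1, the receptor of cross-presenting dendritic cells, had a lowest, median and highest level of 4.95, 10.1 and 14.9 CPM in CD3-high and 0.680, 1.61 and 3.74 CPM in CD3-low tumours, without overlap. It differed by 2.48 ± 0.37 (adjusted p = 0.0014) and by 1.64 in the ordinary-GC fit (adjusted p = 0.047). Itgae, the CD103 integrin of such cells and of tissue T cells, differed by 1.09 and 1.19 in the same fits (adjusted p = 0.001 and 0.024). Flt3, a growth factor receptor of dendritic cells, differed by 0.91 (adjusted p = 0.0028), and Clec9a, a receptor for dead cells, by 1.25 (adjusted p = 0.02), which was 0.30 in the GC-adjusted fit (adjusted p = 0.7).

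Of 17 macrophage and monocyte genes 8 were higher and 1 lower, with 5 higher in the GC-adjusted and 4 in the ordinary-GC fit and none lower in either. Adgre1, which encodes F4/80, had 40.02, 62.6 and 70.5 CPM as lowest, median and highest in CD3-high and 15.8, 23.02 and 32.9 CPM in CD3-low tumours, without overlap (1.31 ± 0.19, adjusted p = 0.0014, ordinary-GC 1.06, adjusted p = 0.024). Fcgr1, an antibody receptor, differed by 1.01 (adjusted p = 0.0014), and Ccr2, the receptor that recruits monocytes, by 2.54 (adjusted p = 0.0016). Csf1r, the growth factor receptor of macrophages, overlapped between the sides and differed by 0.50 ± 0.18 (adjusted p = 0.039), a call kept in 5 of 12 fits without a tumour. The neutrophil list had 3 of 13 genes higher, a share of 23.1% against 25.1% of all genes, and 1 and 1 in the GC-adjusted and ordinary-GC fits. Its median was nevertheless 0.28, 0.73 and 0.89 in the first, GC-adjusted and ordinary-GC fits, against 0.085, -0.05 and 0.0045 over all genes. Csf3r, the granulocyte growth factor receptor, was higher (0.76 ± 0.17, adjusted p = 0.005). S100a8, an abundant neutrophil protein, was 4.26 to 21.9 CPM in CD3-high and 10.1 to 29.6 CPM in CD3-low tumours and did not pass (-0.63 ± 0.35, adjusted p = 0.14). The sign of S100a8 turned to 0.12 in the ordinary-GC fit.

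Among chemokines and their receptors 12 of 18 were higher and 2 lower, 3 and 0 in the GC-adjusted fit. Their summed level was not higher, with 624 to 978 CPM in CD3-high and 768 to 1135 CPM in CD3-low tumours. Cxcr6, a receptor of resident and effector T cells, was 2.20 to 6.06 CPM in CD3-high and 0.384 to 1.09 CPM in CD3-low tumours, without overlap. The difference was 2.48 ± 0.35 (adjusted p = 0.0011) and 2.16 in the ordinary-GC fit (adjusted p = 0.038). Ccl8, a chemokine, differed by 1.00 (adjusted p = 0.0016) and by 1.10 in the ordinary-GC fit (adjusted p = 0.03).

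**Figure D4:**
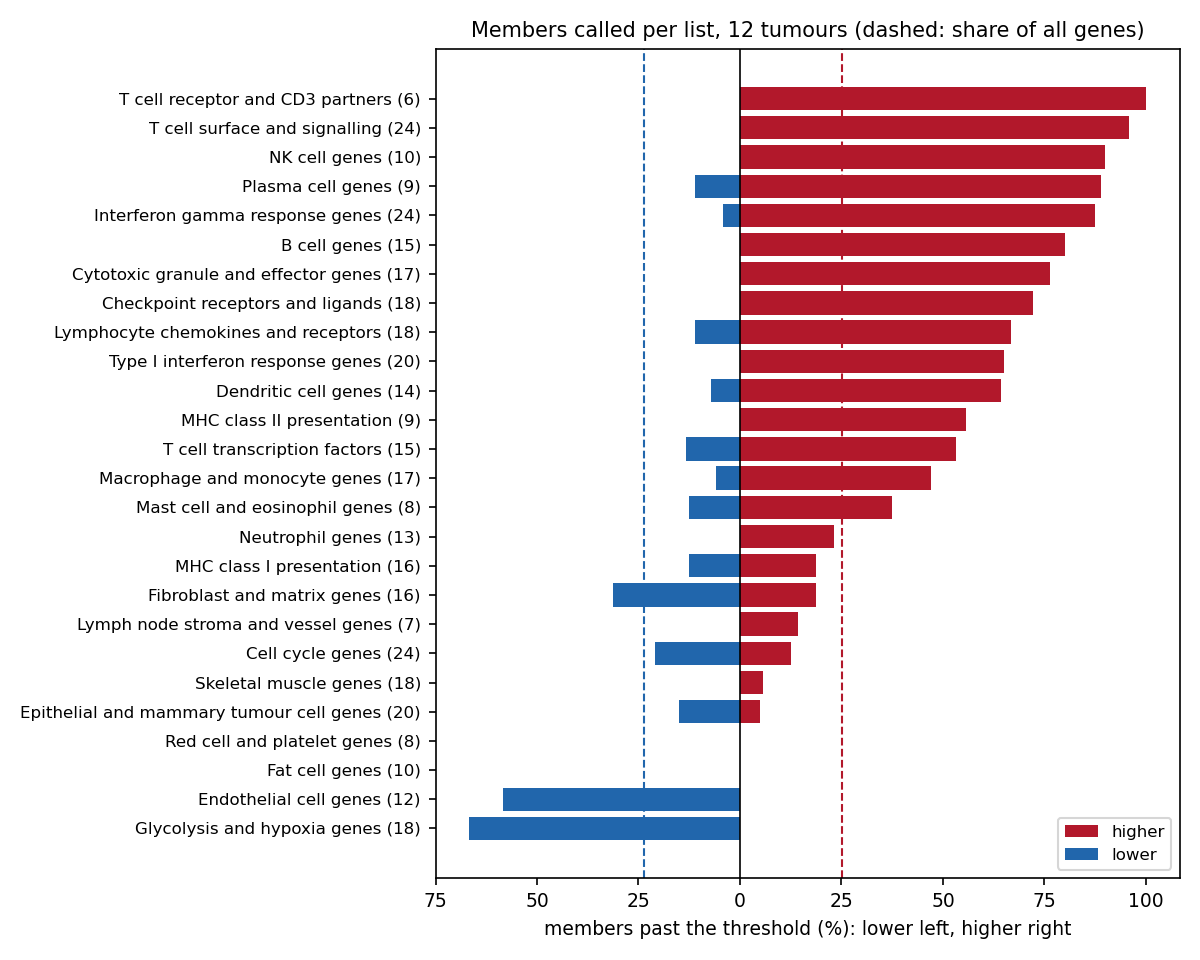
Share of the tested members of each list (number in brackets) that were called lower (bars to the left, %) or higher (bars to the right, %) over 12 tumours, with dashed lines at the shares of all genes, 23.7% and 25.1%. Lymphocyte and interferon lists reach past the dashed line to the right, and glycolysis and endothelial lists reach past it to the left.

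Genes of glycolysis and hypoxia lay on the other side. Of 18, 12 were lower and none higher, with a median of -0.76, and the GC-adjusted fit called 4 lower (median -0.50). The ordinary-GC fit called none (median -0.44), although both of its CD3-high tumours lay below all 6 CD3-low tumours for 9 of 18 genes, against 6.69% of all genes. Slc2a1, the glucose transporter GLUT1 (chromosome 4, 119108711 to 119137983, plus strand, ENSMUSG00000028645), had a lowest, median and highest level of 75.9, 143 and 228 CPM in CD3-high and 362, 438 and 628 CPM in CD3-low tumours. The sides did not overlap, as for 5.11% of all genes in this direction, and the difference was -1.63 ± 0.25 (adjusted p = 0.0016). It was 203 CPM in DMSO 2_4 and 228 CPM in 27HC 1_4, with -1.05 ± 0.23 in the ordinary-GC fit (adjusted p = 0.054). The glycolytic enzymes Aldoa and Eno1 differed by -1.28 and -1.43 (adjusted p = 0.0028 and 0.0024), and Egln3, an oxygen sensor, by -1.14 (adjusted p = 0.0019). Under scaling by library totals alone, 9 of the list were lower and none higher. Vegfa, the angiogenic factor that hypoxia induces, did not pass (137 to 214 against 164 to 259 CPM, -0.19 ± 0.16, adjusted p = 0.32).

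Endothelial genes had 7 of 12 lower and none higher (median -0.55), 1, Plvap, in the GC-adjusted fit and none in the ordinary-GC fit. Plvap, a protein of vessel fenestrae, was 25.8 to 51.3 CPM in CD3-high and 57.03 to 115 CPM in CD3-low tumours (-1.16 ± 0.18, adjusted p = 0.0016), and Flt1, a VEGF receptor, differed by -0.64 (adjusted p = 0.004). Pecam1, the general endothelial marker CD31, did not pass (0.10 ± 0.14, adjusted p = 0.58). Under scaling by library totals alone, 4 endothelial genes were higher and 2 lower, where 46.8% of all genes were higher and 11.7% lower. Of 16 fibroblast and matrix genes 5 were lower and 3 higher (median -0.016), where 23.7% of all genes were lower and 25.1% higher. Among the lower ones were Col1a1 (-0.94, adjusted p = 0.0051), Col5a1 (-1.26, adjusted p = 0.0034) and Fn1 (-0.92, adjusted p = 0.0095), which encode collagens and fibronectin. Under scaling by library totals alone, the split of the 16 genes turned to 4 lower and 7 higher. The GC-adjusted fit called 1 of them lower, Col5a1, and 0 higher, with Col1a1 and Fn1 not past the threshold (adjusted p = 0.12 and 0.15), and the ordinary-GC fit called none. Tgfb1, a cytokine that restrains T cells, was lower (70.0 to 239 against 219.6 to 455 CPM, -1.50 ± 0.28, adjusted p = 0.0027), with -0.80 in the ordinary-GC fit (adjusted p = 0.12).

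Markers of the tumour cells gave few calls, and some of those that define an epithelium were nearly absent. Epcam, an epithelial adhesion molecule, was 0.245 to 12.7 CPM and Krt8, a keratin, 0.168 to 9.66 CPM over the 19 tumours, while Krt18, its partner keratin, was 34.4 to 130.1 CPM. Of 20 epithelial genes 3 were lower (Krt18, Cldn3 and Lcn2) and 1, Cdh1, higher, shares below the 23.7% and 25.1% of all genes. None was called in the GC-adjusted fit or the ordinary-GC fit. The differences of Krt18 and Cdh1, the gene of E-cadherin, were -0.71 ± 0.23 and 0.67 ± 0.19 (adjusted p = 0.022 and 0.011). Epcam, Krt8 and the oestrogen receptor gene Esr1 did not pass (0.35, -0.61 and 0.19, adjusted p = 0.61, 0.51 and 0.52).

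Cell cycle genes were split over 12 tumours, 3 of 24 higher and 5 lower, and 11 higher and 2 lower under scaling by library totals alone, with none called in the GC-adjusted or ordinary-GC fit. The shares of all genes were 25.1% higher and 23.7% lower over 12 tumours, and 46.8% and 11.7% with library totals. Mki67, which encodes the proliferation marker Ki-67, was 494 CPM in 27HC 1_3, 381 in 27HC 2_3, 379 in DMSO 2_3 and 268 in DMSO 1_5, the low-GC libraries, but 120.5 CPM in DMSO 2_4 and 102 CPM in 27HC 1_4. CD3-low tumours had 67.5 to 225 CPM, a range that holds both ordinary-GC values. The difference of 1.06 ± 0.40 over 12 tumours (adjusted p = 0.04) turned to -0.39 in the ordinary-GC fit (adjusted p = 0.46). Plk1, Cdc20 and Mcm2, which act in mitosis and replication, were lower over 12 tumours (-1.02, -0.91 and -0.74, adjusted p = 0.0038, 0.0045 and 0.0095).

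**Figure D5:**
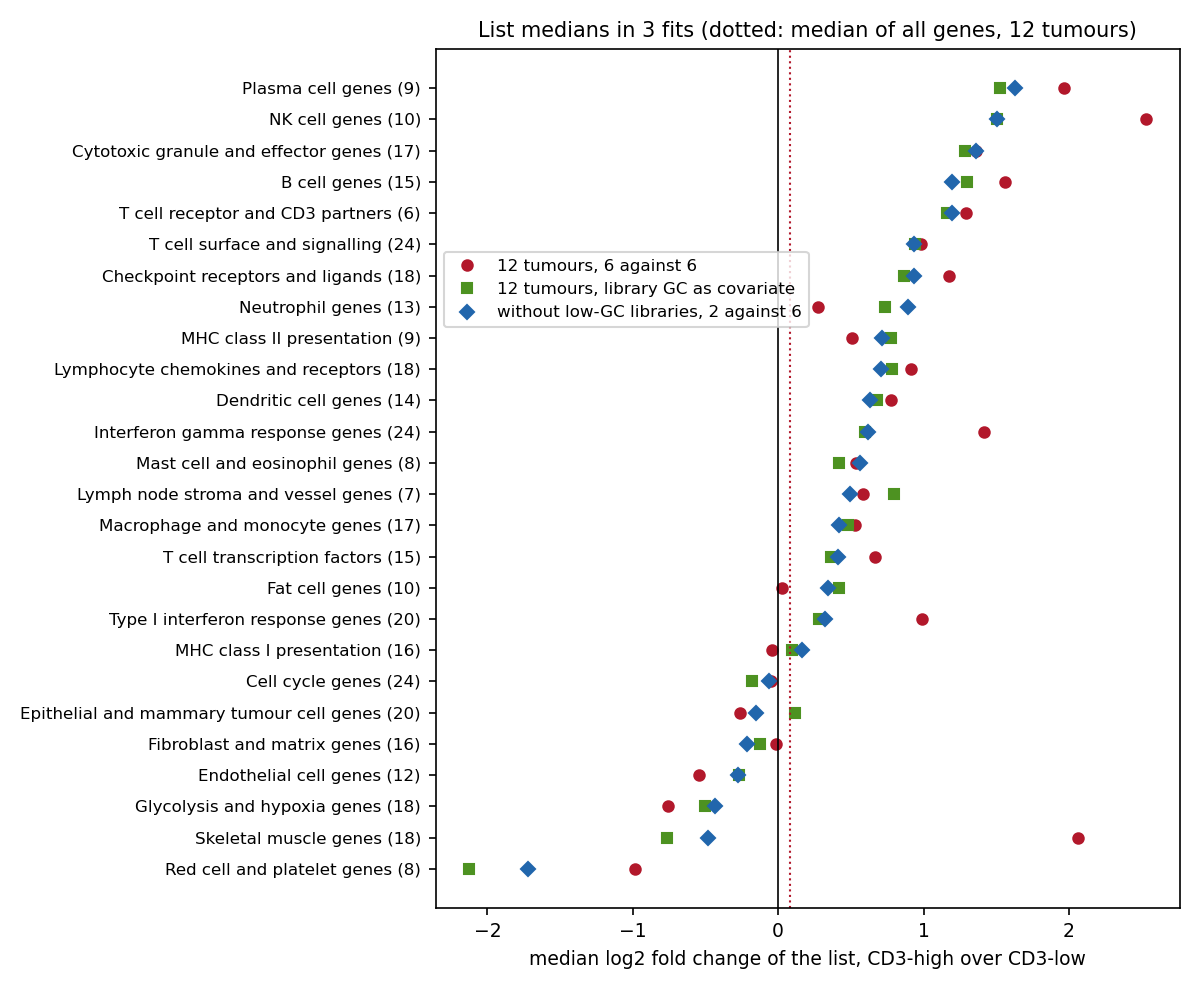
Median log2 fold change (x axis, CD3-high over CD3-low) of each list with at least 5 tested genes in the fit of 12 tumours (circles), with library GC as covariate (squares) and without low-GC libraries (diamonds), with a dotted line at the median of all genes over 12 tumours. T cell receptor, T cell surface, B cell, class II and interferon gamma medians are among those that stay above 0.5 in all 3 fits. Both interferon medians are smaller in the latter fits, and the muscle median changes sign.

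RNA of neighbouring tissue was present in some libraries on both sides. The summed level of the muscle genes Acta1, Ckm and Mylpf, in column-total CPM without TMM, was 1612 CPM in 27HC 1_3 and 335 CPM in 27HC 2_3 on the high side and 660.3 CPM in 27HC 1_2 on the low side, and under 100 CPM in the other 9 tumours. Of 18 muscle genes 1, Ttn, was called (3.76, adjusted p = 0.027), with 0.33 in the ordinary-GC fit, and Acta1 was not (2.19 ± 1.61, adjusted p = 0.26). Salivary gland genes stood out in DMSO 1_5, with 6681 column-total CPM for Amy1 and Bpifa2 together, and did not exceed 3.52 on that scale in the other 11. Fat cell genes gave no call, Plin1 included (-0.70 ± 0.42, adjusted p = 0.17). Without the 3 muscle-bearing libraries the counts were 543 higher and 559 lower, where 27HC 1_3 and 27HC 2_3 are low-GC libraries too. The part of muscle and gland tissue in the results was not tested.

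The 15 genes with the smallest p in each direction, taken where the mean level reached 1 log2 CPM, held many leukocyte genes on the high side. Among the higher ones were Gimap3, Fgd2, Dock2, Lax1, Rasal3, Ms4a7, Pla2g2d, Ighm, Tnfrsf13b, Dennd1c, Arhgap30, Apobec1, Clec4a3 and Dnase1l1. Gimap3, a GTPase of lymphocytes, had 16.5, 18.6 and 26.8 CPM as lowest, median and highest in CD3-high and 5.32, 6.43 and 7.60 CPM in CD3-low tumours (1.68 ± 0.16, adjusted p = 0.00068). Dock2, which drives leukocyte migration, Rasal3, a Ras regulator of blood cells, and Pla2g2d, a secreted phospholipase, differed by 1.43, 1.30 and 2.13 (adjusted p = 0.00093, 0.00093 and 0.00093). Lower were Mex3d, Zfp503, Srebf2, Sox9, Twist1, Jund, Slc2a1, Hspg2, Irx5, Otud1, Phlda1, Ppp1r15a, Chac1, the histone gene Hist2h2aa2, which shares sequence with other copies, and CAAA01147332.1, a gene on an unplaced scaffold. Sox9 and Twist1, transcription factors of progenitor and mesenchymal states, were 151 to 300.0 and 68.6 to 103 CPM in CD3-high and 353 to 493.5 and 137 to 198 CPM in CD3-low tumours, without overlap (-1.19 ± 0.17 and -0.92 ± 0.13, adjusted p = 0.0012 and 0.0012). Srebf2, the master regulator of cholesterol synthesis, was 82 to 150.4 against 194 to 297 CPM (-1.33 ± 0.18, adjusted p = 0.001, ordinary-GC -0.89, adjusted p = 0.042).

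The genes that followed the CD3 sum most closely over all 19 tumours, by Spearman rho as a description, were Cd8a (0.94), Trbc2 (0.93), Clec12a (0.92), Fcgr4 (0.91), Plbd1 (0.90), Tbc1d10c (0.90) and Slfn1 (0.90). Tbc1d10c and Slfn1 had the same values as 1 and 2 unnamed gene records, so their reads may be shared. The most opposite were Mex3d (-0.93), Gnao1 (-0.92), Ppp1cc (-0.92), Dnaaf5 (-0.91) and Siah2 (-0.91). These points share the libraries and their GC content. Clec12a, a lectin receptor of myeloid cells, was 26.2 to 67.3 CPM in low-GC CD3-high tumours, 20.9 CPM in DMSO 2_4 and 10.7 CPM in 27HC 1_4, and 2.82 to 8.17 CPM in CD3-low tumours.

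A last fit, also chosen after the data were seen, took the 14 tumours outside the low-GC cluster and the log2 CD3 sum as a continuous measure. It called 31 genes higher (0.19%) and 2 lower (0.0123%), and 23 higher genes and 1 lower gene were called in all 4 fits. Among these 23 were the T cell genes Trac, Cd247, Tcrg-C2, Cd8a, Cd8b1, Lax1, Il2rb, Cxcr6, Pdcd1, Nkg7 and Gimap3, the genes of myeloid cells or several leukocyte types Ctss, Ccl8, Clec12a, Adap2, Acod1, Plbd1, Gmfg and Il27ra, with Tbc1d10c and its unnamed copy, and Fam71b, which was at most 1.38 CPM. Tcrg-C2 and Fam71b could pass the filter on low counts through tumours with a high CD3 level alone, so their calls are no support. The lower gene was Mex3d, an RNA-binding protein (chromosome 10, 80380355 to 80387659, minus strand, ENSMUSG00000048696), at 24.98, 42.03 and 58.6 CPM as lowest, median and highest in CD3-high and 97.2, 99.8 and 121 CPM in CD3-low tumours (-1.31 ± 0.19, adjusted p = 0.0012). Per doubling of the CD3 sum in the 14 tumours, Cd8a differed by 1.06 ± 0.13 (adjusted p = 0.0087), Trac by 0.82 ± 0.12 (adjusted p = 0.011), Pdcd1 by 0.91 ± 0.15 (adjusted p = 0.039) and Mex3d by -0.48 ± 0.085 (adjusted p = 0.039). Ccl5, not called in the first, GC-adjusted or ordinary-GC fit, differed here by 0.73 ± 0.14 (adjusted p = 0.045).

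A difference between DMSO and 27HC tumours in a gene's relation to the CD3 level was not called for any gene. The product of treatment and CD3 level over 19 tumours was called for 0 of 17250 genes by edgeR, with 223 at an unadjusted p under 0.05, and for 0 by limma-voom, with 197. Within each treatment, the CD3 level was called for 2 genes higher and 0 lower in 9 DMSO tumours (1943 and 1562 at an unadjusted p under 0.05) and for 3706 and 3569 in 10 27HC tumours. The 2 DMSO and 3 27HC libraries of low GC enter these fits, and since the product was not called, the counts do not show that the treatments differ.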

How the data were processed

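Poly(A) RNA was sequenced as stranded paired-end libraries, per the labels' protocols. The authors deposited 1 table of estimated counts per gene (26796 genes, 19 columns). Per the submitters' processing notes, GRCm38, limma, edgeR and kallisto 0.44.0 were used, in roles not given. Such estimates may share reads among near-identical genes. Totals were 28139419 to 41179056 expected counts, which were rounded. Tests used R 4.3.3, edgeR 4.0.16 (TMM, filterByExpr, quasi-likelihood, Benjamini-Hochberg) with treatment as covariate, limma 3.58.1 and DESeq2 1.42.0. Only the first fit was tested on simulated data, which held no effect of GC content. Levels are TMM-scaled CPM, except the CD3 sums that chose the sides and the muscle and salivary sums, which are CPM of column totals. GC content and positions come from GENCODE M21 (GRCm38) and promoters from RefSeq. Named genes were the 15 smallest p per direction, up to 4 per list, a fixed list, and those closest to or most opposite to the CD3 sum. Members, lists and rules were chosen with earlier results of these data known. Title numbers shared by treatments were not used as pairs in the first fit: 5 of 9 pairs correlated above 0.1 (−0.51 to 0.86). Both tumours of 2_3, the pair at 0.86, were CD3-high, and both of 2_1 were CD3-low. Whether tumours that share a title number depend on each other is not given by the labels. No 2 libraries of a treatment agreed within sampling noise. A few named genes are not reported here.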

Additional observations from a re-analysis of the deposited data

Results flagged for a closer look

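Of 50 groups of 6 tumours examined, 4 held a tumour set apart from the others of its side by more than Dixon's 95% limit, where chance gives about 1 in 20. In CD3-high tumours, DMSO 2_4 was highest for Cd247 (9.233 CPM, next 6.884) and for Nkg7 (21.77 CPM, next 11.11). In CD3-low tumours, 27HC 1_2 was highest for Ccl21a (10.25 CPM, next 1.585) and for Mex3d (121.2 CPM, next 101.3). It is also the CD3-low tumour with muscle transcripts.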

How the results depend on the processing

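The counts of 3974 higher and 3749 lower genes changed with the libraries and with GC content, and the cause was not tested. They were 618 and 542 with library GC as covariate, 150 and 15 without the low-GC libraries, 31 and 2 in the 14 other tumours and 1050 and 924 over all 19 with GC as covariate (the last 3 chosen after the data were seen). They were 543 and 559 without muscle libraries, 2 and 0 in DMSO tumours alone, 1504 and 328 for 9 against 9 tumours, and 1707 and 1900 at an adjusted p of 0.01. Lower calls were 1411 for 7 against 7 and 2045 for sides ranked after TMM scaling. Library totals without TMM gave 7415 and 1858, 80% of calls higher against 51.5%, and moved the median of all genes from 0.085 to 0.45. Leaving out each tumour gave 2708 to 4980 higher and 2426 to 4439 lower calls, the fewest lower ones without 27HC 2_3, and a GC difference between sides of −1.793 to −1.316. Calls within 1.5 times of the first fit came from DESeq2, limma-voom, other filters, first title number, loess GC correction and 27HC tumours alone. No paired analysis was possible because 0 title numbers occurred on both sides. With the title number as a random replicate block the calls were 2870 and 3552, at a consensus correlation of 0.36 within a title number.

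Signs turned for 13 named genes. With GC as covariate these were Mki67 (−0.34), Acta1 (−0.83), Esr1 (−0.32), Krt8 (0.35), H2-K1 (0.036), Plin1 (0.31) and Lag3 (0.51). Without low-GC libraries, 2 against 6 and then 14 tumours, they were Mki67 (−0.39, −0.15), Epcam (−0.079, −0.072), Esr1 (−0.24, −0.066), H2-K1 (0.083, 0.20), Plin1 (0.23, 0.13), S100a8 (0.12, 0.092) and Lag3 (0.59, 0.43), with Acta1 (−1.75) and Ttn (−1.50) in 14 only. Over 19 tumours with GC as covariate they were Mki67 (−0.074), Acta1 (−0.31), Esr1 (−0.027), H2-K1 (0.16) and Lag3 (0.35). The loess correction turned H2-K1 (0.13), B2m (−0.35), Vegfa (0.15), Pecam1 (−0.0022) and Lag3 (0.40), and library totals H2-K1 (0.14), Vegfa (0.15) and Lag3 (0.26). Among narrower changes, DMSO tumours alone turned Ttn (−1.14), Acta1 (−2.26), Esr1 (−0.036), Krt8 (0.12) and Lag3 (0.10), 27HC tumours alone Epcam (−0.42), and the lack of muscle libraries Esr1 (−0.25), Krt8 (0.18) and Lag3 (0.25). Epcam was −0.17 for 7 against 7, H2-K1 0.12 and Lag3 0.16 for 9 against 9, and Lag3 0.025 at a mean of 1 log2 CPM. Without the salivary library Epcam was −0.058 and Lag3 0.0027. Leaving out a tumour moved Epcam from −0.058 to 0.61, Esr1 from −0.033 to 0.39 and Lag3 from −0.31 to 0.087. Ttn over 19 tumours with GC as covariate was −0.37.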

Other observations

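Mast cell and red cell genes were not described above. Of 8 tested mast cell and eosinophil genes, 3 were higher in CD3-high tumours and 1 was lower, where 25.1% of all genes were higher and 23.7% lower. None of the 8 was called with library GC content as covariate. The red cell and platelet genes had a median log2 fold change of -0.98 with 0 of 8 called, and a summed level of 49.98 to 279 CPM in CD3-high and 89.9 to 1522 CPM in CD3-low tumours.

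The low-GC library outside both sides, 27HC 1_5, had a CD3 sum of 16.7 column-total CPM. On the TMM scale its Mki67 level was 302 CPM and its Ptprc level 54.4 CPM, against 67.5 to 225 and 14.1 to 38.5 CPM in CD3-low tumours and 268 to 494 and 119 to 163 CPM in the 4 low-GC CD3-high tumours.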
